A study of Homo sapiens with 4 samples.

Results

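Cyclic AMP is the second messenger made when a stimulatory G protein switches on adenylyl cyclase, and 39 human genes of its signalling chain were followed through 3 histone marks. The genes were chosen by name from that chain, and no measured value entered the rule: the Gs alpha gene GNAS, 10 adenylyl cyclases, 6 subunits of protein kinase A, 11 phosphodiesterases, 6 members of the CREB family and its coactivators, and 5 response genes. The choice was made with earlier results of these data known. All 39 were found among the 19974 protein-coding gene records of the RefSeq annotation. Chromatin immunoprecipitation and sequencing (ChIP-seq) had been carried out on MCF10A, an immortalised human mammary epithelial line that does not form tumours. The groups were 1 library with an antibody to trimethylated lysine 4 of histone H3 (H3K4me3), 1 to dimethylated lysine 79 (H3K79me2) and 1 to trimethylated lysine 27 (H3K27me3), beside an input DNA library whose signal was not analysed here. All 4 libraries came from cells kept in MEGM with 100 ng/ml cholera toxin, so there was no arm without the toxin, and no value below can be read as a response to it. No mark had a replicate, so no difference had a replicate check and no test was run. The read depth is unknown from peak lists.

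In this pathway Gs alpha activates adenylyl cyclase, cyclic AMP releases the catalytic subunits of protein kinase A from their regulatory subunits, and the kinase phosphorylates CREB-type factors. Those factors act with CRTC coactivators on genes whose promoters often hold a cyclic AMP response element (CRE), and phosphodiesterases end the signal by hydrolysing cyclic AMP. Cholera toxin modifies Gs alpha so that it stays active, and it is a usual supplement of mammary epithelial cultures. H3K4me3 is known from promoters, H3K79me2, placed by DOT1L, from the first part of transcribed gene bodies, and H3K27me3, placed by Polycomb complexes, from repressed genes.

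RefSeq promoters were examined for the CRE, TGACGTCA, which reads the same on both strands, and for its cores TGACG and CGTCA, which also lie inside it. The windows ran from 250 bases before to 50 after each listed start. Of the 39 genes, 32 had a listed start, with 88 starts among them. The full element lay in 6 of the 88 windows, at 4 genes, which is 6.82% of these windows against 1.85% of the 34961 windows in the table. A core lay in 26 windows, or 29.5%, against 24.5% of all windows. By gene, 12.5% of the 32 members held a full element at a listed start, against 3.0% of 15812 protein-coding genes. The members had 88 listed starts and those genes 22132, so a member had more windows in which a match could fall. Pairs of neighbouring starts at PRKAR1A and at CREM shared their element. All 6 starts carried H3K4me3, and so did 87.2% of the 500 protein-coding starts with a full element. A match is a description of the letters and does not show binding.

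The 3 sequences below are shown because a full CRE precedes the start. They are the 250 bases before the start on the plus strand of GRCh38.p14, at chr10:35195652-35195901 for the start inside CREM, chr17:68512180-68512429 for PRKAR1A and chr6:135851451-135851700 for PDE7B. Capitals mark the element, whose first base lay 50, 49 and 155 bases before the start of CREM, PRKAR1A and PDE7B.
CREM: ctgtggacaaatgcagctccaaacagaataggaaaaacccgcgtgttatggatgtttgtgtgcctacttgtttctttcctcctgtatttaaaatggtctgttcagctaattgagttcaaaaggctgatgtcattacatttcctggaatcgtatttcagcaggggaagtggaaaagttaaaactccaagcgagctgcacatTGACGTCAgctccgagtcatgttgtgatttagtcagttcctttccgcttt
PRKAR1A: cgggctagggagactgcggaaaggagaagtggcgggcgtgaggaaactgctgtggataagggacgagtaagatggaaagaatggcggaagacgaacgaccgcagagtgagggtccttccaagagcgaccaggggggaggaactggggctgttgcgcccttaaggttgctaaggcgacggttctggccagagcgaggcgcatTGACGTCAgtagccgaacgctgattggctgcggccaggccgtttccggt
PDE7B: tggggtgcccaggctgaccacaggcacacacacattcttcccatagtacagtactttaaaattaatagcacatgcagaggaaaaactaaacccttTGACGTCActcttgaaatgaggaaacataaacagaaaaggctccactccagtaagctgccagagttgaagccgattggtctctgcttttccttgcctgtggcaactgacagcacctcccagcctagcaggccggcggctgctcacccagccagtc

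Several cores without a full element in the bases shown were seen before 3 further starts, and capitals mark each TGACG or CGTCA. The windows are chr19:10416523-10416772 (plus strand) for PDE4A, chr9:99821635-99821884 (plus strand) for NR4A3 and chr21:43427132-43427381 (minus strand) for SIK1. The full element of PDE4A did not lie wholly before the start.
PDE4A: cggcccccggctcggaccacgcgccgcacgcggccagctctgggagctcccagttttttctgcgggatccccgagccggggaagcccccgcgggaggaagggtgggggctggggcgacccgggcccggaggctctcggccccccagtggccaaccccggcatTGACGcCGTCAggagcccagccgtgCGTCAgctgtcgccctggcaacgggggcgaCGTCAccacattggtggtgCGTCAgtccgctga
NR4A3: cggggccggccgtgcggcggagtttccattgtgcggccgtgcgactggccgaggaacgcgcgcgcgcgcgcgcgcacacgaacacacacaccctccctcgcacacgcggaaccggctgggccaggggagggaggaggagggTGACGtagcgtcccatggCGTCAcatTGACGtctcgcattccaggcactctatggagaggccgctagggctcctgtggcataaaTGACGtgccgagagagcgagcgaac
SIK1: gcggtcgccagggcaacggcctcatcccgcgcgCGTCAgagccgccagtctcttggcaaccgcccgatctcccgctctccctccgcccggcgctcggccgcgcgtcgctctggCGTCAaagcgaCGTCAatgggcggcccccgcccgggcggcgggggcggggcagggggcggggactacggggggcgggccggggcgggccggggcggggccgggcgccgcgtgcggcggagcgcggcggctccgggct

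The last pair precedes the starts of PDE4B and PDE4D that lie deep inside their records and carried the strongest internal H3K4me3 of the long phosphodiesterase genes at a listed start of their own. They are chr1:66331858-66332107 (plus strand) and chr5:59039477-59039726 (minus strand), and neither holds a full element or a core in these bases.
PDE4B: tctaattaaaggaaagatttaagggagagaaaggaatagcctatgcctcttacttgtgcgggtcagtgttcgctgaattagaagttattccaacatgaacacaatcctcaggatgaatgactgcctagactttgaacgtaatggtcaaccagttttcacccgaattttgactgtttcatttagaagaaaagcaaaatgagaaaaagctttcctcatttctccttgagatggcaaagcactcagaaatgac
PDE4D: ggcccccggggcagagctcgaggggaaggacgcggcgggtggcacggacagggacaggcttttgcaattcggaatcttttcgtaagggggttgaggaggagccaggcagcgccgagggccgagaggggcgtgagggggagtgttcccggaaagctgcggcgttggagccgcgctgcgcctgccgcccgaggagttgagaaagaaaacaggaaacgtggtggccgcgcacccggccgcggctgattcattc

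H3K4me3 lay at an end of 33 of the 39 genes (84.6%), against 67.9 percent of all protein-coding genes. H3K79me2 was present at 22 (56.4%), against 50.9 percent, and H3K27me3 at 7 (17.9%), against 9.10 percent. Many members are long: 22 of the 39 records were at least 100000 bp. Among all protein-coding records of that length the 3 shares were 75.1, 51.2 and 13.9 percent, nearer to those of the members. The deposited lists give each peak a fold enrichment and a −log10 q, both computed by the peak caller, and these are the authors' values. A call needed 25% or more of a window to lie in peaks: the bases up to 1000 bp to each side of a record end or, for H3K79me2, the first 5000 bp inward from one. With peaks of q at or below 0.05 alone the calls were 32, 18 and 4, against 66.3, 43.3 and 5.52 percent of all genes. ADCY5 lost its H3K4me3 call there. GNAS, NR4A2, PDE7B and PDE10A lost H3K79me2, and GNAS, ADCY2 and ADCY5 lost H3K27me3.

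The counts differed between roles, each of few genes, beside 67.9, 50.9 and 9.10 percent of all genes for H3K4me3, H3K79me2 and H3K27me3. All 6 genes of the CREB group carried H3K4me3 with H3K79me2 and none had H3K27me3 at an end. Of the 6 kinase subunits, 6 had H3K4me3, 4 had H3K79me2 and 1 had H3K27me3. Of the 10 cyclases these numbers were 7, 4 and 3, of the 11 phosphodiesterases 8, 4 and 2, and of the 5 response genes 5, 3 and 0. In groups of 5 or 6 genes, the absence of H3K27me3 calls says little beside 9.10 percent. In all, 21 genes had H3K4me3 with H3K79me2 and no H3K27me3, a combination found at 48.9% of all protein-coding genes. ADCY5, ADCY8, PRKAR2B, PDE3A and PDE3B had H3K4me3 with H3K27me3 and no H3K79me2 (3.87% of all genes). Both marks came from a whole population of cells, and peak lists do not show whether they sat on the same chromosomes.

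**Figure D1:**
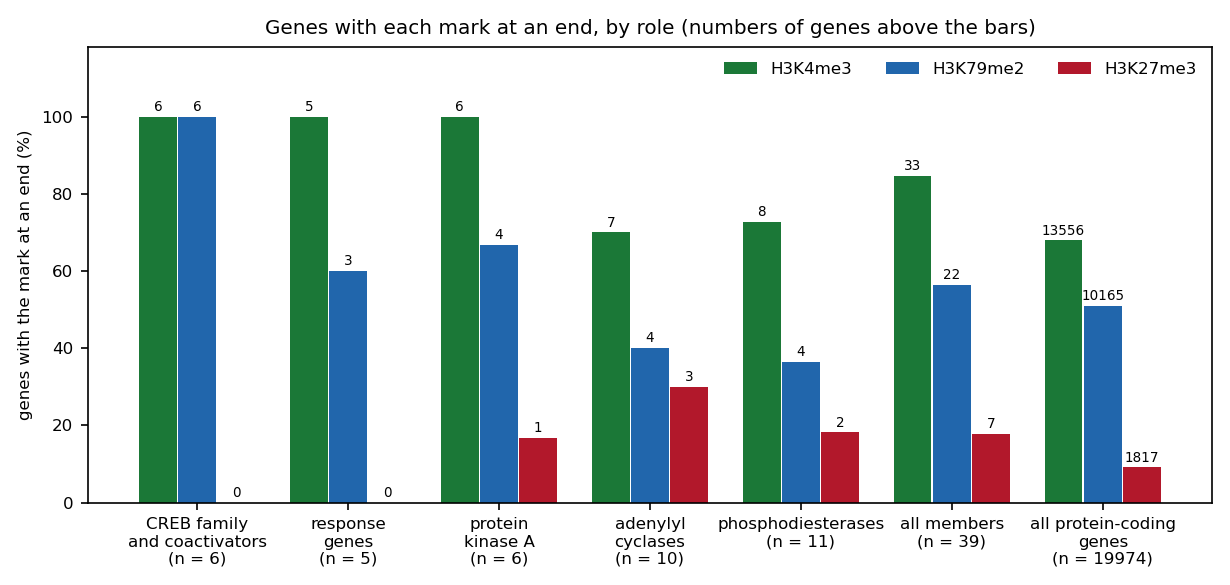
Bars give the percentage of genes with H3K4me3 (green), H3K79me2 (blue) and H3K27me3 (red) at an end of the record, for 5 role groups, for all 39 members and for all 19974 protein-coding genes; GNAS, the single Gs alpha gene, is counted under all members only. The CREB group stands at 100% for H3K4me3 and H3K79me2 and at 0 for H3K27me3, while cyclases and phosphodiesterases stand at 40.0% and 36.4% for H3K79me2.

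**Figure D2:**
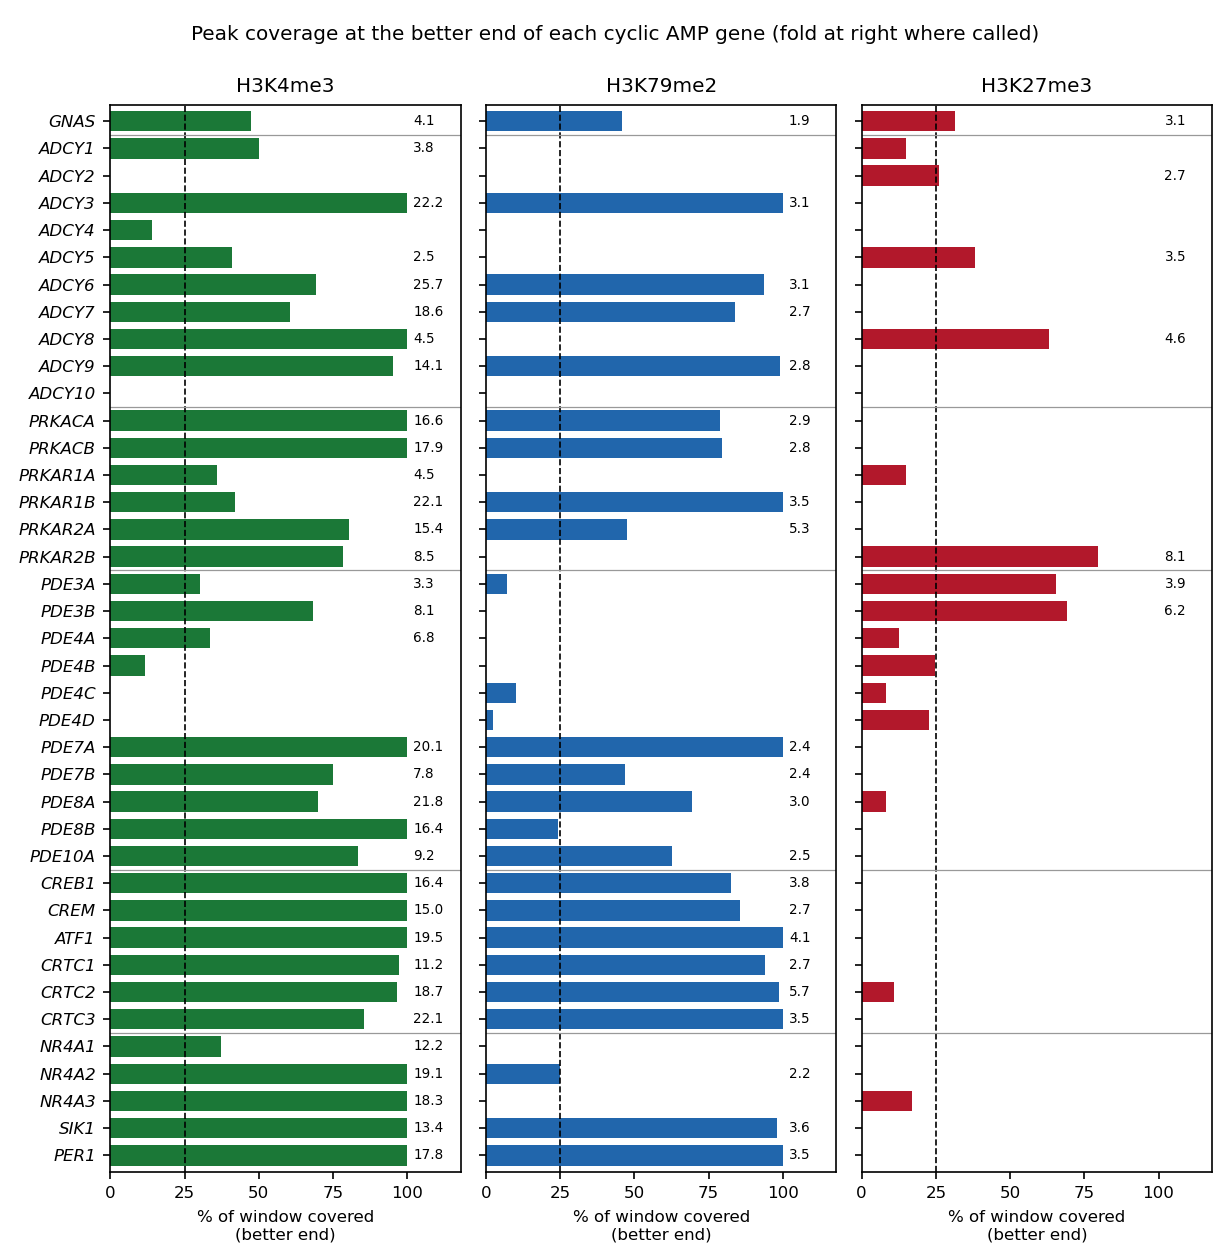
Bars give the percentage of the window covered by peaks at the better-covered end of each of the 39 genes, in rows by role, with the call threshold of 25% dashed; the number at the right of a called bar is the fold enrichment of the strongest peak in that window. Well covered H3K4me3 and H3K79me2 rows run through the CREB group, and the highest H3K27me3 bar is that of PRKAR2B (79.7%).

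GNAS encodes Gs alpha, the protein that cholera toxin modifies, and is an imprinted gene with several alternative promoters. It was the only one of the 39 with all 3 marks at its ends by this rule, a state of 0.461% of all genes. Its 6 listed starts differed along the record. At the outermost, 58839748 on chromosome 20, H3K4me3 was 4.06-fold and H3K27me3 3.08-fold. At 58852716 H3K4me3 reached 11.3-fold in a peak of 3398 bp, with no H3K79me2 in the 5000 bp after it. At the starts 58888413 and 58889180, 48.7 kb and 49.4 kb into the record, H3K4me3 reached 17.8-fold over 8020 bp and H3K79me2 5.71-fold over 13076 bp. The strongest H3K4me3 and H3K79me2 of GNAS lay at the inner starts, and most H3K27me3 peaks lay before them. H3K27me3 covered 13.1% of the record and its flanks. The H3K79me2 call at an end came from the 3′ end (1.89-fold) and the H3K27me3 call from the 5′ end. Neither of these calls remained with peaks of q at or below 0.05 alone. The peak lists do not separate the parental alleles, and the antisense record GNAS-AS1 overlaps the outermost start. The upper end of GNAS-AS1 lay in the H3K4me3 peak of 3398 bp. An H3K79me2 peak of 7339 bp (3.09-fold) also held that end.

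Among the adenylyl cyclases, the membrane enzymes that make cyclic AMP, ADCY3, ADCY6, ADCY7 and ADCY9 carried H3K4me3 with H3K79me2. H3K4me3 at their ends was 22.2-fold at ADCY3, 25.7-fold at ADCY6, 18.6-fold at ADCY7 and 14.1-fold at ADCY9. H3K79me2 was 3.07-, 3.14-, 2.74- and 2.79-fold in the same order. It covered 55.5% of the ADCY3 span and 48.9% of the ADCY9 span, a span being the record with 5000 bp on either side. These 4 genes had no H3K27me3 at an end. The only listed start of ADCY7 lay 21.85 kb into the record, where H3K4me3 was 4.155-fold and H3K79me2 2.42-fold.

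The cyclase genes ADCY1, ADCY5 and ADCY8 differed from these 4. Their H3K4me3 was weak, at 3.83-fold for ADCY1, 4.49-fold for ADCY8 and 2.52-fold for ADCY5, and no H3K79me2 was found at their ends. H3K27me3 covered 10.1% of the ADCY1 span, 9.97% of the ADCY8 span and 9.33% of the ADCY5 span, against a median of 0.490% over all genes. ADCY2 resembled them, with H3K27me3 over 9.25% of its span and no H3K4me3 at an end. Its H3K27me3 call came from the 3′ end, near an end of CFAP90, where the strongest peak was 2.69-fold and 26.1% of the window was covered. ADCY4 had a 3.70-fold H3K4me3 peak that covered 14.0% of the window and so was not called. ADCY10, the soluble cyclase that responds to bicarbonate, had an 8.16-fold H3K4me3 peak inside its record (chr1:167819562-167821232) and no mark at an end.

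The catalytic subunits of protein kinase A carried strong H3K4me3, at 16.6-fold for PRKACA and 17.9-fold for PRKACB, with H3K79me2 of 2.90- and 2.80-fold. PRKACA had a second H3K4me3 peak of 18.7-fold at its 3′ end, which overlapped the record of SAMD1. The regulatory subunits hold the kinase inactive until cyclic AMP binds. Of these, PRKAR1B had 22.2-fold H3K4me3 with 3.51-fold H3K79me2, and PRKAR2A had 15.4-fold with 5.28-fold. Both peaks of PRKAR1B also held a listed start of DNAAF5. The H3K79me2 peak (chr7:714862-740878) ran past the end of the PRKAR1B record at 728934.

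PRKAR1A shows what the record's ends leave out. At the 5′ end of its record H3K4me3 was 4.53-fold with no H3K79me2. All 5 of its listed starts lay 98.4 to 101.8 kb into the record, inside an H3K4me3 peak of 16.9-fold and 7029 bp, with H3K79me2 of 4.19-fold over 13652 bp. The CRE printed above stood in that region. WIPI1 lies within the same record span, and a further H3K4me3 peak of 12.3-fold lay at its start.

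PRKAR2B differed from the other kinase subunits. H3K4me3 at its start was 8.55-fold, and H3K27me3 there was 8.08-fold over 2423 bp, with a −log10 q of 10.7. H3K27me3 covered 19.9% of its span, a share higher than in 96.1% of protein-coding genes, and H3K79me2 covered 0.359%. Among the 7 H3K27me3 calls of the pathway, it alone remained at −log10 q of at least 5 or at fold of at least 5.

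Of the phosphodiesterases, which degrade cyclic AMP, PDE7A, PDE7B, PDE8A and PDE10A had H3K4me3 with H3K79me2 at an end. PDE7A, a cyclic AMP-specific enzyme, had 20.1-fold H3K4me3, and H3K79me2 covered 78.8% of its span, the highest share among the 39 genes. PDE8A had 21.8-fold and 48.3%. PDE7B, the gene with the CRE farthest upstream of those printed, had 7.77-fold H3K4me3 and 2.36-fold H3K79me2. The peak at the 5′ end of PDE10A (9.24-fold) also held ends of the non-coding records LINC00473 and LINC00602. The listed starts of PDE10A, 324.8 and 325.8 kb further in, had no peak of any of the 3 marks in their windows. PDE8B had 16.4-fold H3K4me3 in a peak that also held an end of ZBED3. Its H3K79me2 covered 24.2% of the window, just under the threshold.

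The PDE3 genes, whose enzymes are inhibited by cyclic GMP, carried H3K27me3. At PDE3A it covered 39.6% of the span, a share higher than in 99.0% of protein-coding genes, with 159 peaks of q at or below 0.05. H3K4me3 at its end was 3.30-fold over 606 bp, and H3K79me2 covered 0.107% of the span. At PDE3B H3K27me3 covered 25.3% of the span and was 6.16-fold at the marked end, where H3K4me3 was 8.10-fold. That end lies near an end of PSMA1, and the 14.1-fold H3K4me3 peak inside PDE3B lay at the start of CYP2R1.

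The PDE4 genes, which encode the rolipram-sensitive, cyclic AMP-specific enzymes, had their H3K4me3 inside the record or weakly at its end. PDE4A had a 3.42-fold H3K4me3 peak of 551 bp on its first listed start and no H3K79me2 in its span. A 6.82-fold H3K4me3 peak of 4488 bp began further in and held the start 3.77 kb into the record, where H3K27me3 covered 78.1% of the window at 5.36-fold. PDE4C had no H3K4me3 at an end and a 10.6-fold peak at the last of its 4 listed starts, 30.9 kb into the record. PDE4B and PDE4D had none of the 3 marks at an end by this rule, with H3K27me3 just below the threshold at 24.8% and 22.6% of the window.

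PDE4D, the longest member at 1553 kb, was divided into a part with H3K27me3 and a part with H3K79me2. In the first 700 kb from its 5′ end, H3K27me3 covered 9.79% to 56.4% of each 50 kb bin (median 24.4%), while H3K79me2 covered at most 0.3%. In the 17 whole bins beyond, H3K79me2 covered 30.0% to 94.1% (median 68.1%) and H3K27me3 at most 5.13%. The last bin, of about 3 kb, held no peak of the 3 marks. The first internal H3K4me3 peak from the 5′ end lay 711.6 kb in, near that border, and was 5.27-fold. Before it, 219 H3K27me3 peaks and 0 H3K79me2 peaks had q at or below 0.05. From it on there were 0 of H3K27me3 and 12 of H3K79me2, which are longer peaks. The border was placed after the profile had been seen.

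From the first internal H3K4me3 peak of PDE4D on, H3K79me2 covered 65.9% of the record and H3K27me3 0.397%. All 20 internal H3K4me3 peaks lie in that part because the first of them bounds it. Of these 20 peaks, 18 overlapped H3K79me2 and none overlapped H3K27me3. The highest was 11.9-fold over 8811 bp (chr5:59034050-59042860), on the listed start 59039476 whose upstream bases are printed above. The peak of 11.5-fold over 10326 bp (chr5:59763597-59773922) was the widest and lay 119804 bp from the nearest listed start. Those of 9.42-fold (chr5:59273995-59276990) and 7.13-fold (chr5:59296148-59299402) lay 79980 and 57568 bp from one. The other 16 ranged from 2.78- to 6.89-fold.

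PDE4B showed the same order of marks over 582.1 kb. Its first internal H3K4me3 peak, 468.3 kb in, was weak (2.71-fold). Before it H3K27me3 covered 11.7% and H3K79me2 0.319% of the record. From that peak on, H3K79me2 covered 22.4% and H3K27me3 0.435%. With q at or below 0.05 there were 52 H3K27me3 peaks before it and 0 from it on. H3K79me2 had only 1 such peak on each side, so most of its separate peaks in PDE4B were above that q. The strongest of its 8 internal peaks, 8.99-fold over 5460 bp (chr1:66331407-66336866), lay on the listed start 66332108. After it H3K79me2 covered 52.8% of the remaining 37.7 kb, against 0.407% of the 538.9 kb before it. Little H3K79me2 thus lay between the first internal peak and the strongest. In the bin from 450 to 500 kb, H3K79me2 covered 1.16% and H3K27me3 0.0%. The next internal peaks by fold were 6.66-, 3.83- and 3.72-fold, and the other 4 ranged from 2.71- to 2.97-fold.

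**Figure D3:**
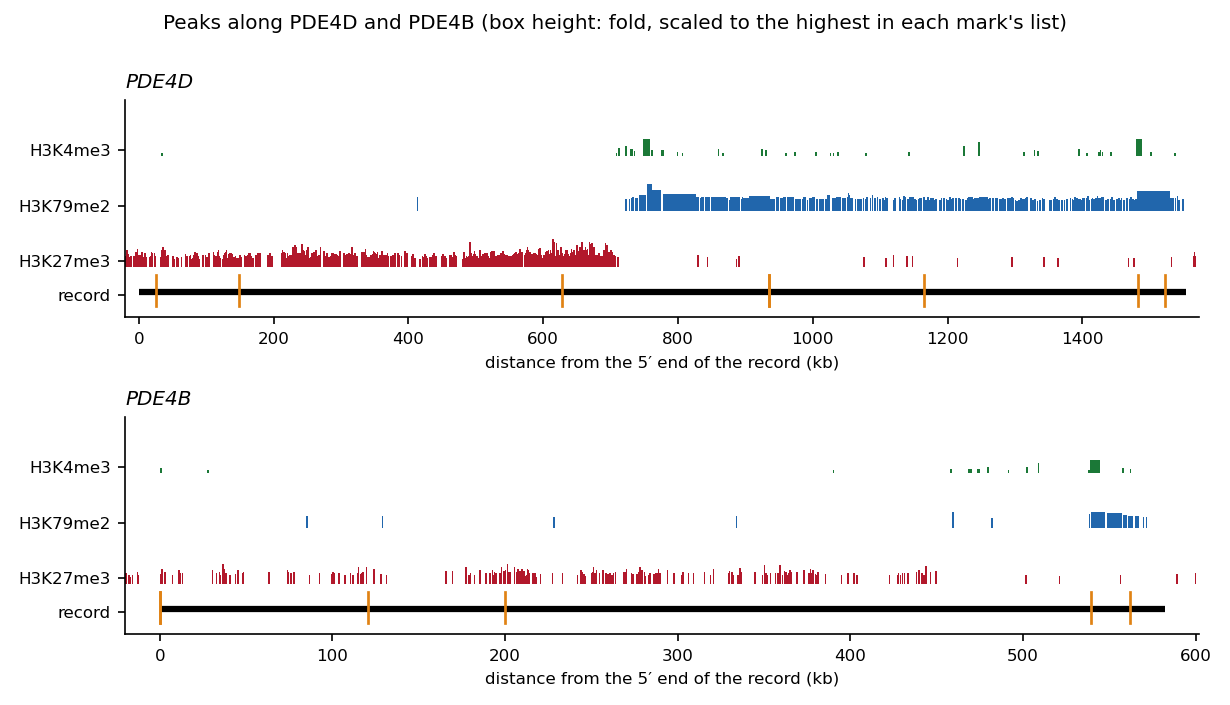
Peaks of H3K4me3 (green), H3K79me2 (blue) and H3K27me3 (red) are drawn by distance in kb from the 5′ end of the PDE4D and PDE4B records (black bars), with listed starts in orange; box height is the fold enrichment scaled to the highest fold in that mark's list, and narrow peaks are drawn wider than scale so that each can be seen. H3K27me3 fills the part of PDE4D before about 700 kb and H3K79me2 the part after it, and the widest H3K79me2 of PDE4B follows its strong H3K4me3 peak at 538.9 kb.

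Of the phosphodiesterase records, 9 were at least 100000 bp long, and 8 of these held an internal H3K4me3 peak with q at or below 0.05 and more than 5000 bp from both ends. Of all 3351 protein-coding records of that length, 70.2 percent held one. The 9 records held 39 such peaks with a median of 4.05-fold. The median density was 0.783 peaks per 100 kb, against 0.673 over all records of that length. Of the 39 peaks, 25 overlapped H3K79me2 and 1 overlapped H3K27me3, at PDE8B, where it was 7.01-fold at a listed start. Within 1000 bp of a listed start of the gene itself were 4 peaks, and within 1000 bp of one of another gene were 3. PDE3A, with the highest H3K27me3 share, held none. The 3 peaks of PDE7B reached 4.72-fold, the single ones of PDE7A and PDE8A 3.21- and 4.19-fold, and the pair in PDE10A 3.24-fold.

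The CREB group, the transcription factors at the end of the chain with their coactivators, carried H3K4me3 and H3K79me2 throughout. Among the factors, H3K4me3 was 16.4-fold at CREB1, 15.0-fold at CREM and 19.5-fold at ATF1. Their H3K79me2 was 3.82-, 2.71- and 4.15-fold. Among the coactivators, which enter the nucleus when cyclic AMP rises, H3K4me3 was 11.2-fold at CRTC1, 18.7-fold at CRTC2 and 22.1-fold at CRTC3. Their H3K79me2 was 2.74-, 5.68- and 3.54-fold. The 6 kept both calls at q at or below 0.05. H3K79me2 covered 27.7% (CREM) to 69.1% (ATF1) of their spans. The ends of CRTC2 lie near those of DENND4B and SLC39A1, and the start of CREM near an end of CUL2.

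CREM is known to make a short repressor, ICER, from an internal promoter that cyclic AMP induces. Of its 7 listed starts, 3 lay 68.3 to 69.1 kb into the record. They fell in an H3K4me3 peak of 7.64-fold and 1937 bp, the only H3K4me3 peak of the CREM span besides that at its 5′ end (4044 bp). H3K79me2 covered 8.98% of the 5000 bp after the innermost start, below the call, against 85.4% after the outermost. The full CRE printed above precedes that innermost start. The start at 40.7 kb had no H3K4me3.

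**Figure D4:**
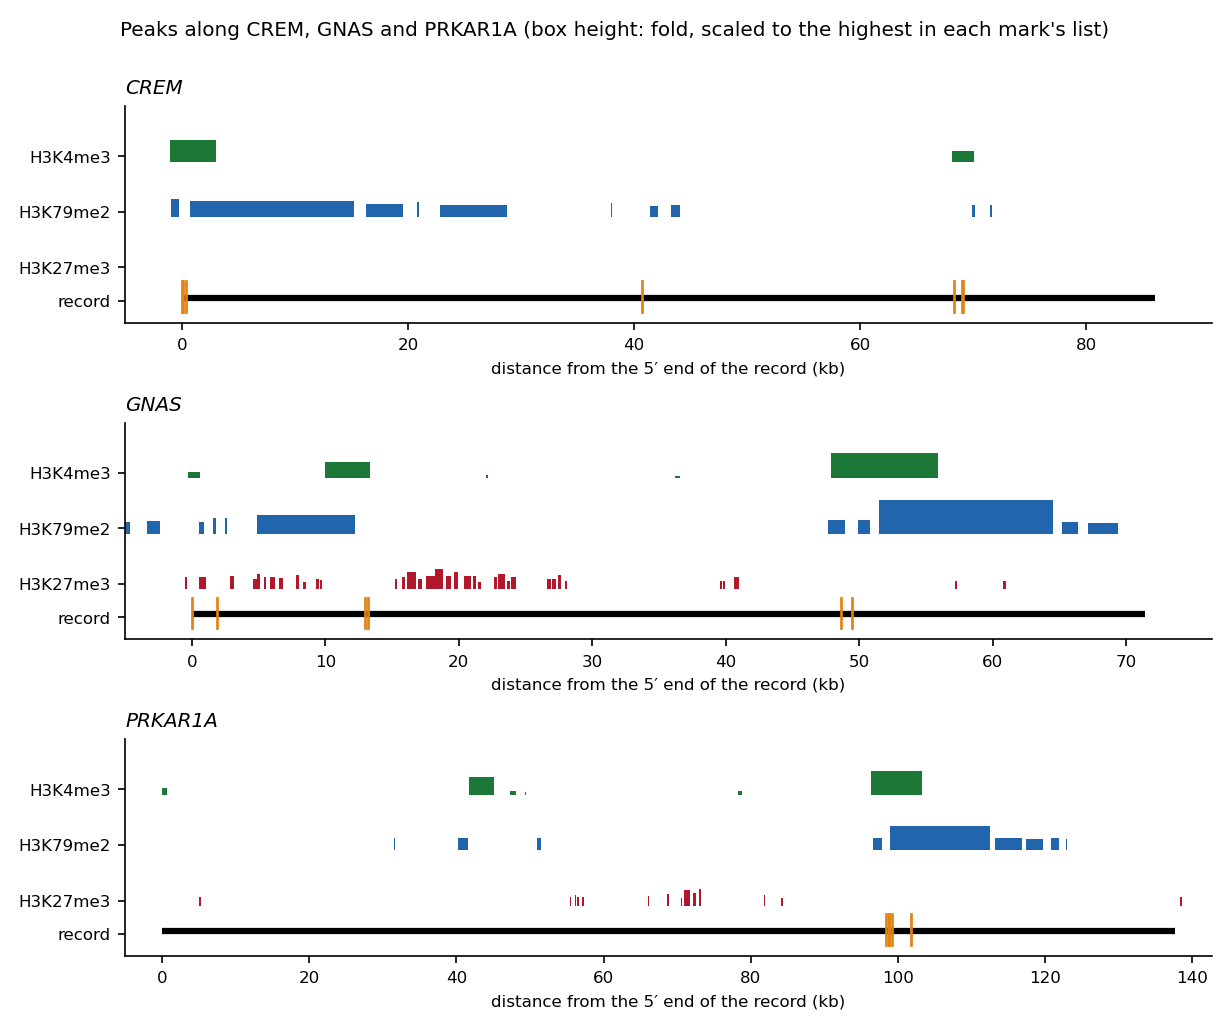
Peaks along CREM, GNAS and PRKAR1A are drawn by distance in kb from the 5′ end of each record, with the colours, starts and fold scaling used for the phosphodiesterase maps. Strong H3K4me3 followed by wide H3K79me2 lies at the outer start of CREM, at the inner starts of GNAS near 48.7 kb and at the inner starts of PRKAR1A near 98.8 kb.

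The 5 response genes, transcribed when CREB-type factors are active, had H3K4me3 at an end in all cases and differed in H3K79me2. PER1, a clock gene, had an H3K4me3 peak of 7264 bp with H3K79me2 of 3.53-fold over 11270 bp. H3K79me2 covered 57.6% of its span. SIK1, a kinase that phosphorylates CRTC coactivators, had H3K4me3 of 13.4-fold over 8811 bp and H3K79me2 of 3.55-fold over 8076 bp. A second copy in the annotation, LOC102724428 on the same chromosome, had 13.7-fold over 9664 bp and 3.79-fold over 8509 bp. Reads from near-identical copies cannot be assigned with certainty, so the values of SIK1 are uncertain.

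The NR4A genes, which encode orphan nuclear receptors, had little H3K79me2. NR4A2 had H3K4me3 over 5530 bp and 2.18-fold H3K79me2 covering 25.1% of the window, and its H3K79me2 call was lost at q at or below 0.05. NR4A3 had H3K4me3 over 5943 bp, no H3K79me2 in the 5000 bp after its start, and H3K27me3 over 7.09% of its span. NR4A1 held 5 H3K4me3 peaks with q at or below 0.05. The highest was 12.5-fold at chr12:52050138-52052925, inside the record, beside 12.3-fold at its 5′ end. H3K79me2 covered 460 bp of the NR4A1 span. At the listed start 14.9 kb into NR4A1, 8.48-fold H3K4me3 shared the window with 4.23-fold H3K27me3.

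**Figure D5:**
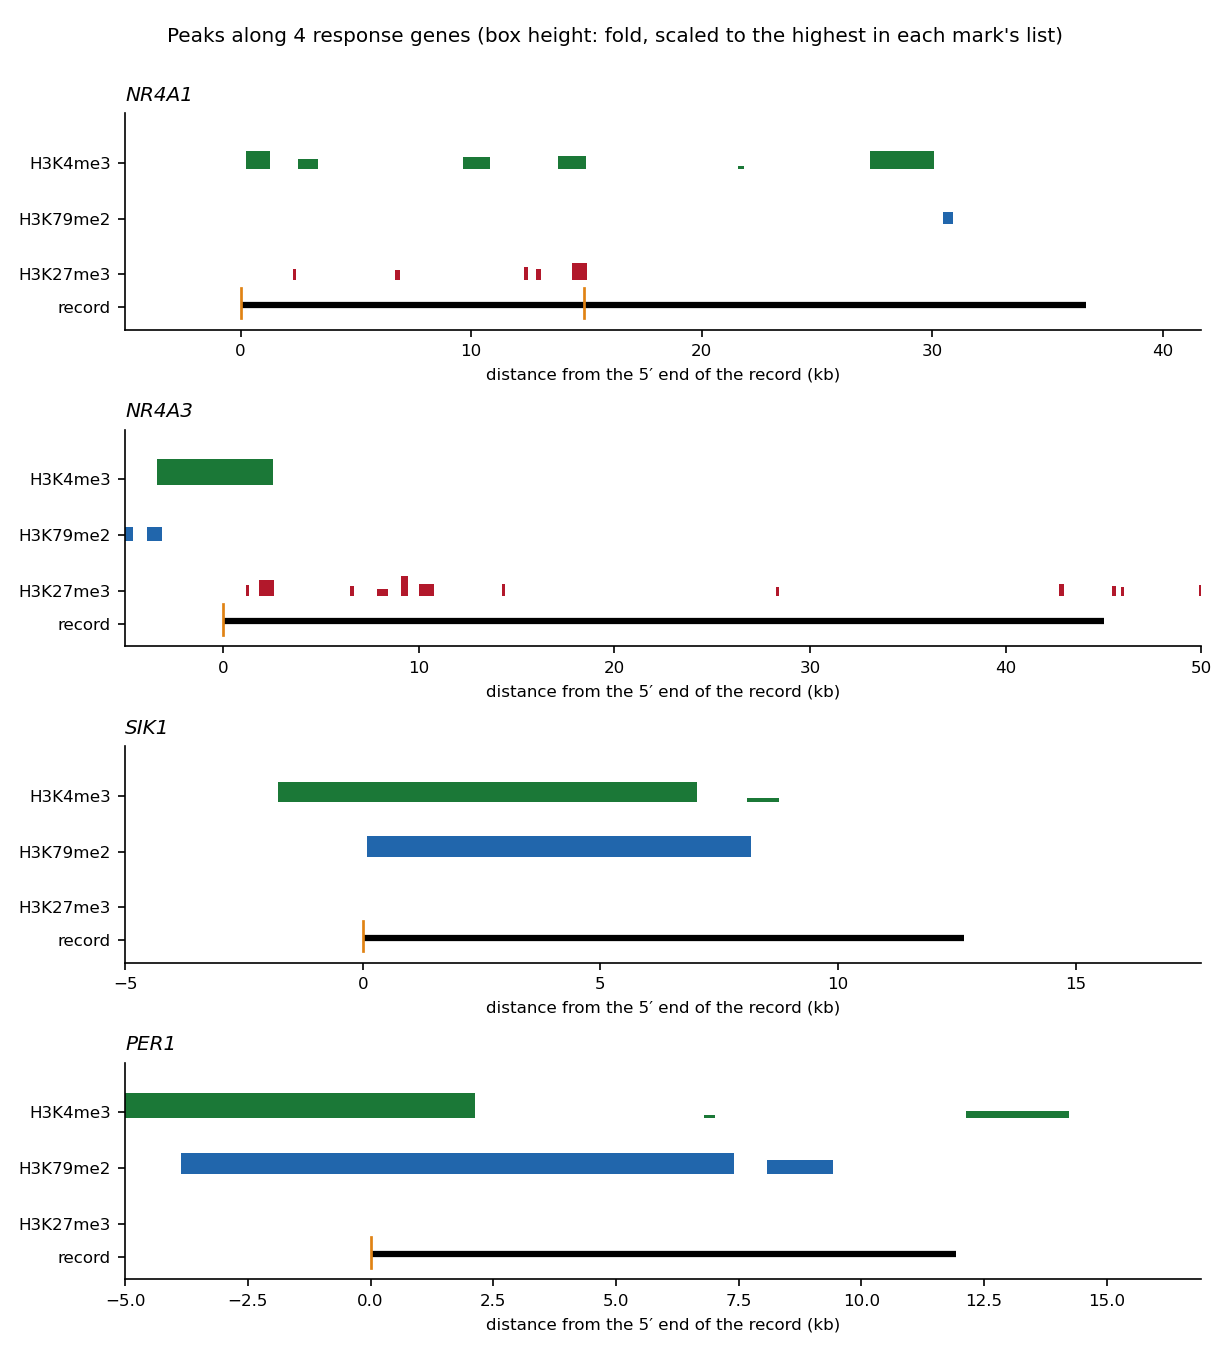
Peaks along NR4A1, NR4A3, SIK1 and PER1 are drawn by distance in kb from the 5′ end of each record, with the colours, starts and fold scaling used for the phosphodiesterase maps. Wide H3K79me2 accompanies H3K4me3 at SIK1 and PER1, while at NR4A1 and NR4A3 H3K27me3 peaks lie inside the record.

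Over the 88 listed starts of the 32 genes, H3K4me3 was called at 52 (59.1%), against 68.1 percent of 22132 starts of protein-coding genes. H3K79me2 was called at 45 (51.1%), against 54.0 percent, and H3K27me3 at 10 (11.4%), against 6.65 percent. Of the 32 genes, 16 had H3K4me3 at every listed start, 11 at some and 5 at none. PDE4D had it at 1 of 8 starts, PRKACB at 1 of 5, PDE4C at 1 of 4 and PDE4B at 2 of 6. Starts of a gene can share a window, and are not independent. ADCY6, ADCY8, ADCY9, PDE3B, PDE7A, CRTC2 and NR4A2 had no listed start.

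Over whole spans, at least 500 bp of H3K4me3 lay in 39 of the 39 genes, of H3K79me2 in 30 and of H3K27me3 in 23. The background was 80.7, 68.3 and 36.0 percent of all protein-coding genes. Long records gather more peaks. Of the 22 members of at least 100000 bp, 22, 16 and 18 were called, against 94.8, 82.3 and 76.2 percent of all records of that length. The median share of the span covered was 5.97% for H3K4me3, 22.6% for H3K79me2 and 0.900% for H3K27me3 over the members. Over all protein-coding genes these medians were 7.67%, 14.1% and 0.490%. Over the 22 members of at least 100000 bp they were 2.71%, 5.06% and 1.66%. Over all protein-coding records of that length they were 3.32%, 11.1% and 0.576%. The H3K79me2 median of the members thus lay above that of all genes, and below it among long records. The median H3K79me2 share was 54.3% in the CREB group, 3.86% in the phosphodiesterases and 0.931% in the cyclases. Single cyclases ranged from 0 to 55.5%.

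Further genes of the pathway were counted by the same call at gene ends, in lists chosen by name. Of 40 Gs-coupled receptors, which activate Gs alpha, 13 had H3K4me3, 4 had H3K79me2 and 12 had H3K27me3. H3K4me3 was 12.5-fold at HTR7 and 11.8-fold at PTGER4, which encode a serotonin and a prostaglandin E2 receptor. H3K79me2 was 3.09-fold at PTGER4 and 3.02-fold at the adenosine receptor gene ADORA2B. H3K27me3 was highest at CRHR1 (8.08-fold), CALCR and GCGR (6.54-fold each), receptors of peptide hormones. With peaks of q at or below 0.05 alone, the receptor calls were 12, 4 and 8. The receptor share with H3K27me3 as deposited lay above the 9.10 percent of all genes, and the shares with the other marks lay below theirs.

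Of 12 other G protein alpha genes, H3K4me3 was called at 11, H3K79me2 at 7 and H3K27me3 at 1. These shares, 91.7%, 58.3% and 8.33%, stood beside 67.9, 50.9 and 9.10 percent of all genes. GNA14 had no H3K4me3 call, and GNAL, GNAI2, GNAO1, GNAZ and GNA14 had no H3K79me2 call. GNAI3 led in H3K4me3 (18.7-fold) and H3K79me2 (4.77-fold), and GNAO1 had the H3K27me3 (7.70-fold). Of 14 other phosphodiesterases the numbers were 7, 2 and 4 (the last pair 14.3% and 28.6%), with PDE1A highest in H3K4me3 (19.5-fold), PDE12 in H3K79me2 (4.46-fold) and PDE9A in H3K27me3 (5.72-fold). Of 18 A-kinase anchoring proteins, which tether protein kinase A, they were 14, 12 and 1 (77.8%, 66.7% and 5.56%). AKAP1 was highest in H3K4me3 (25.7-fold), EZR in H3K79me2 (5.48-fold) and AKAP12 alone had H3K27me3 (4.23-fold). AKAP4, AKAP6, AKAP7 and AKAP14 had no H3K4me3 call.

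Of 21 other effectors and inhibitors of the kinase, H3K4me3 was called at 14, H3K79me2 at 7 and H3K27me3 at 4. The H3K4me3 share of 66.7% was close to the 67.9 percent of all genes, and with peaks of q at or below 0.05 alone the calls were 14, 2 and 2. PRKX led in H3K4me3 (24.2-fold), the inhibitor gene PKIB in H3K79me2 (5.36-fold) and the channel gene HCN4 in H3K27me3 (5.36-fold). Of 8 further coactivators, CREB-type factors and SIK kinases, 7 had H3K4me3, the same number had H3K79me2 and 0 had H3K27me3. CREB5 had no H3K4me3 and no H3K79me2 call. These shares, 87.5%, 87.5% and 0, stood beside 67.9, 50.9 and 9.10 percent of all genes. With only 8 genes, the absence of H3K27me3 calls says little beside 9.10 percent. ATF2 reached 23.2-fold H3K4me3 and EP300 5.15-fold H3K79me2. Of 23 other response genes, H3K4me3 was called at 13 (56.5%), H3K79me2 at 9 (39.1%) and H3K27me3 at 4 (17.4%). The H3K4me3 and H3K79me2 shares lay below those of all genes, and none of the 4 H3K27me3 calls remained with peaks of q at or below 0.05. FOSB was highest in H3K4me3 (18.9-fold), NFIL3 in H3K79me2 (4.83-fold) and the liver enzyme gene TAT in H3K27me3 (5.39-fold).

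Cholera toxin enters cells through the ganglioside GM1 and the endoplasmic reticulum. Of 13 genes of ganglioside synthesis and toxin entry, H3K4me3 was called at 12, H3K79me2 at 9 and H3K27me3 at 0, beside 67.9, 50.9 and 9.10 percent of all genes. B4GALT6 had no H3K4me3 call at its ends, though 9948 bp of its span lay in H3K4me3 peaks. B4GALNT1, B3GALT4, ST3GAL5 and B4GALT6, enzymes of ganglioside synthesis, had no H3K79me2 call. SYVN1 was highest in H3K4me3 (23.5-fold) and ARF1, an activator of the toxin, in H3K79me2 (7.37-fold). The label of a mammary epithelial line was set against marker genes. Of 9 basal markers, 8 (88.9%) had H3K4me3 and H3K79me2, beside 67.9 and 50.9 percent of all genes, with TP63 the exception at its ends. Of 13 markers of blood, endothelial, fibroblast, liver, neural and muscle cells, 1 had H3K4me3 (SYP, 4.42-fold), 2 had H3K79me2 (SYP and PECAM1) and 1 had H3K27me3 (MYH11). That H3K27me3 share, 7.69%, was near the 9.10 percent of all genes.

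Neighbouring genes limit a call by position. Another annotated record lay in or within 5000 bp of 37 of the 39 records, and another protein-coding record in or near 18. Its part in each call was not tested. The lists held 67781 H3K4me3 peaks (median width 850 bp), 112731 of H3K79me2 (666 bp) and 393202 of H3K27me3 (213 bp). Their highest folds were 31.1, 7.47 and 11.1, so folds were compared within a mark and not between marks.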

How the data were processed

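The submitters' processing notes name Bowtie2 (2.3.1), MACS2 (2.1.1) and the build hg38. Each deposited peak carries a fold, the ratio of its enrichment to the background the caller estimated, and a deposited −log10 q. The chromosome, start and end columns, per the deposited layout, carry no unit of measurement. Use of the input as control was not given in the sources used here. Peaks were called per library by the authors.

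Peaks on 23 chromosomes (1 to 22 and X) were set against RefSeq gene records, starts and promoters of GRCh38.p14, which is the same build, using Python 3.11.15, numpy 2.4.6 and pandas 2.3.3. Listed starts were to give the call if at least 80% of the members and of the protein-coding genes had one. Since 79.2% of protein-coding genes did, either end of the record gave it. Covered lengths were tested on simulated windows. Alternatives changed the peak threshold, covered share, window and margin, and their effect is given in the closing section. The members, lists and marker genes were chosen with earlier results of these data known. All 39 members were named, and from each of the 10 further lists up to 3 genes per mark by fold, and exceptions of 5 or fewer, of which some are not reported here. Up to 4 internal peaks per gene were given by fold. AKAP2, BVES and SIK1B were not matched. The 4 libraries include 1 input, not analysed here.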

Additional observations from a re-analysis of the deposited data

How the results depend on the processing

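The number of members with H3K4me3 at an end ranged from 26 to 35 over the 8 alternatives tried, beside 33 as reported, and over the span from 33 to 39. The calls of the other marks moved more.

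At −log10 q of at least 5, H3K79me2 was called at the ends of 4 members and over the spans of 7, H3K27me3 at the ends of 1 and over the spans of 4, and internal H3K4me3 peaks numbered 20. At fold of at least 5, H3K79me2 was called at 2 ends and 3 spans (3.56% and 4.99% of all genes), H3K27me3 at 1 end and 7 spans (1.69% and 4.7%), and internal peaks numbered 11. The background fell too: at −log10 q of at least 5, H3K79me2 was at an end of 12.6% and H3K27me3 of 1.21% of all genes. H3K27me3 at an end fell to 4 members with q at or below 0.05 and to 4 at a covered share of 50%. It rose to 16 where 1 bp sufficed (24.7% of all genes), to 12 with peaks joined across 3000 bp (16.2%) and to 11 with any listed start (8.23%, below the 9.10% of the reported rule). At least 10% of the span was covered by H3K27me3 in 6 members (9.24% of all genes). All deposited peaks gave 89 internal H3K4me3 peaks. The span share of 10% and the listed starts were chosen after seeing the data. In all, 31 of 48 values stayed within 1.5 times the reported count.

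No paired analysis was possible because each mark had 1 library and no test was run. Leaving out a replicate was impossible for the same reason, and depth is unknown from peak lists.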
